A study of Homo sapiens with 6 samples.

Results

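The genes described here encode the subunits of the oxidative phosphorylation complexes. They were the rows with an Ensembl identifier whose symbol starts with NDUFA, NDUFB, NDUFC, NDUFS or NDUFV (not the assembly factors NDUFAF), SDHA to SDHD (not SDHAF), UQCR, COX4 to COX8, ATP5, MT-ND, MT-CO, MT-CYB or MT-ATP. This rule found 104 of 19684 genes, 91 encoded in the nucleus and 13 in the mitochondrial genome. The rule uses names alone and no measured value. The complex of each member was also taken from its name alone, so NDUFA4 and NDUFA4L2 are counted in complex I and COX7A2L in complex IV on that ground only. It also takes a few genes that are not structural subunits, among them ATP5IF1, the inhibitor of the ATP synthase, ATP5S, and the readthrough genes NDUFC2-KCTD14 and ATP5MF-PTCD1, and it does not take CYC1 and CYCS.

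The mRNA of K1 cells, an established cell line of a human papillary thyroid carcinoma, was sequenced in 6 libraries. In 3 libraries (NC) the cells had been transfected with a negative control siRNA, and in 3 libraries (si-NEAT1_2) with an siRNA against NEAT1_2, the long transcript of a nuclear non-coding RNA. All 6 libraries come from the same line, the siRNA is the only treatment by which the labels tell the groups apart, and the labels give neither a dose nor a time after transfection. A separate table holds 1 value per group. The labels do not say whether the replicates were separate cultures, so p-values measure the spread between these libraries, which may be technical. NEAT1 itself was not analysed here, so the knockdown could not be checked in the libraries.

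Oxidative phosphorylation passes electrons from NADH and succinate through complexes I and II to coenzyme Q, on through complex III and cytochrome c to complex IV, and there to oxygen. Complexes I, III and IV pump protons across the inner mitochondrial membrane, and complex V, the ATP synthase, uses the gradient to make ATP. Most subunits are encoded in the nucleus and imported, while a small core set of hydrophobic subunits is encoded in the mitochondrial genome, transcribed as long polycistronic RNAs and cut into single mRNAs; complex II is encoded in the nucleus alone. Papillary thyroid carcinoma arises from thyroid follicular cells, whose oncocytic tumours are known for a great number of mitochondria.

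In these libraries the nuclear and the mitochondrial subunits lay on opposite sides of 0. Of the 83 nuclear members with enough counts to be tested, 74 had a log2 fold change above 0 (higher in si-NEAT1_2), beside 50.9% of all genes tested, with a median log2 fold change of 0.32, while 11 of the 13 mitochondrial members were below 0, with a median of −0.20. Over all 13109 genes tested the median was 0.009. No member passed the test, and neither did any other gene, and both medians rested in large part on 1 library, si-NEAT1_2 replicate 2.

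Total counts ranged from 22798631 to 27066025 per library. Markers of thyroid cells were partly present in all 6 libraries: PAX8 lay between 113 and 169 FPKM and FOXE1 between 5.75 and 8.78, whereas TSHR, SLC5A5 and NKX2-1 stayed under 1 FPKM. Of the 5 epithelial markers, the keratins KRT8 and KRT18 were high (at least 1149 and 391 FPKM), EPCAM lay between 1.27 and 1.73 FPKM, and KRT19 and CDH1 were under 1 FPKM in every library. Of the 5 fibroblast markers, LUM lay between 16.2 and 25.04 FPKM and the other members at or under 2.25. The 5 leukocyte and 3 endothelial markers were under 1 FPKM in every library. The first principal component of the log2 counts held 55.1% of the variance. It set si-NEAT1_2 replicate 2 (score 52.7) apart at one end and NC replicate 2 (score −43.3) at the other, with the remaining 4 libraries between −15.0 and 15.9. All 3 NC libraries had lower scores than all 3 si-NEAT1_2 libraries. Over genes, the loadings of this component had a Spearman rho of 0.64 against GC content and of −0.61 against the length of the transcript. Values with such trends removed are called corrected below and are given for most genes described by complex and for the lists. In bulk RNA, fewer cells of a state and less RNA per cell cannot be told apart.

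Sequence of the mitochondrial members is shown first for the 2 places where reading frames overlap, because reads there could be given to either gene and the counts of the pairs are uncertain. MT-ATP8 and MT-ATP6 share 46 bases (chrM:8527-8572, plus strand, GRCh38) and MT-ND4L and MT-ND4 share 7 bases (chrM:10760-10766, plus strand). In both lines below the capitals mark the start codon of the second gene inside the first.
MT-ATP6 start within MT-ATP8, chrM:8517-8546: gagaaccaaaATGaacgaaaatctgttcgc
MT-ND4 start within MT-ND4L, chrM:10750-10766: acctactccaATGctaa

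For the nuclear members, promoters of RefSeq (GRCh38.p14, 250 bases before to 50 after the start) were found for 69 of the 91 genes. They were searched on both strands for the letters of 2 factors known for nuclear genes of the respiratory chain. The first is the palindromic site of NRF1, spelled out in capitals in the lines below, which was in 4 of the 69 promoters (5.80%) and in 1.36% of all 27305 promoters. The second is CCGGAAG, the core of ETS factors such as GABPA, which was in 19 of the 69 (27.5%) and in 10.7% of all promoters. The windows of 3 of the 4 promoters with an exact NRF1 site follow, with that site in capitals. They are shown as the member promoters with an exact copy of these letters; the other 65 had none.
NDUFB4, chr3:120596167-120596196, plus strand: agagcacttcGCGCATGCGCatatcaccga
ATP5F1C, chr10:7788145-7788174, plus strand: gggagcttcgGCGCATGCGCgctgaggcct
SDHD, chr11:112086753-112086782, plus strand: agctgtgtttGCGCATGCGCgacgggtgtg
A match of letters is a description and no evidence of binding. The fourth promoter belongs to NDUFA8. The log2 fold changes of these 4 genes were 0.22 for NDUFB4, 0.26 for ATP5F1C, −0.02 for SDHD and 0.31 for NDUFA8.

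The levels of the members, compared per length as FPKM, showed how far the mitochondrial mRNAs exceeded the nuclear ones. The 13 mitochondrial members together took between 1.92% and 3.76% of all counts in a library, and the 91 nuclear members together between 0.829% and 1.26%. MT-CO1, the catalytic subunit of complex IV, had the highest mean level of all members (6564 FPKM over the 6 libraries). The nuclear member with the highest mean was ATP5F1B, the catalytic beta subunit of the ATP synthase, at 571 FPKM. Over all nuclear members, the median level was 65.5 FPKM in complex I, 87.3 in complex II, 88.5 in complex III, 119 in complex IV and 137 in complex V. Over the members with enough counts to be tested it was 113 in complex III and 231 in complex IV, since 6 of the 17 members of complex IV were near 0.

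Tissue isoforms separated cleanly by level. COX4I1, COX6A1, COX6B1, COX7A2 and COX8A, the forms of the complex IV subunits that most tissues use, had means between 129 and 526 FPKM, while COX4I2, COX6A2, COX6B2, COX7A1 and COX8C, forms of lung, muscle or testis, stayed at or under 0.25 FPKM in every library. NDUFA4 lay between 58.2 and 76.0 FPKM, and its hypoxia-linked paralog NDUFA4L2 between 0.67 and 1.51. The 3 genes for the identical c subunit of the ATP synthase ring were all present, ATP5MC2 at 314 FPKM, ATP5MC3 at 218 and ATP5MC1 at 133. The 8 members that did not pass the filter on low counts were the 5 complex IV forms named above together with COX7B2, ATP5MGL and UQCRHL, an intronless copy of UQCRH. Paralogs and processed copies share sequence, so reads can be split between them, and NDUFC2 and ATP5MF share exons with the readthrough genes that carry their names. The deposited tables also hold 4 loci without an Ensembl identifier that bear the symbols MT-ATP6 (1 locus) or SDHA (3 loci), which the rule leaves out. The locus named MT-ATP6 held between 1368 and 2104 counts per library.

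The shares of all counts lay opposite for the 2 genomes in the libraries at the extremes. The NC libraries, in the order of their replicate numbers, gave the nuclear members 0.962%, 0.829% and 0.930% of their counts, and the si-NEAT1_2 libraries gave them 0.993%, 1.26% and 0.955%. For the mitochondrial members the same order gave 2.47%, 3.76% and 3.70% with NC, then 3.64%, 1.92% and 2.92% with si-NEAT1_2. The library with the highest nuclear share, si-NEAT1_2 replicate 2, had the lowest mitochondrial share, and the library with the lowest nuclear share, NC replicate 2, had the highest mitochondrial one. The group means of the mitochondrial share were 3.31% ± 0.725 (SD, n = 3) in NC and 2.82% ± 0.863 in si-NEAT1_2, a difference of −0.487 percentage points that is smaller than either SD and that came to −0.034 without si-NEAT1_2 replicate 2. The groups overlapped in both classes. The ratio of mitochondrial to nuclear counts was 2.57, 4.53 and 3.97 in NC and 3.66, 1.52 and 3.05 in si-NEAT1_2.

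**Figure D1:**
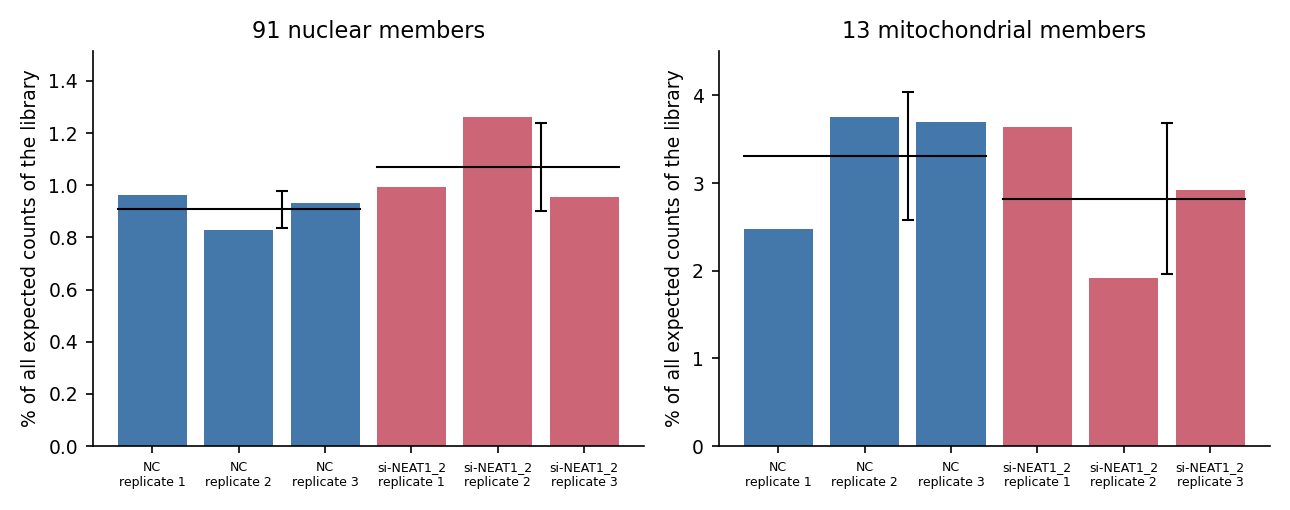
Share of all expected counts (%) held by the 91 nuclear members (left) and the 13 mitochondrial members (right) in each library. Bars are libraries, horizontal lines are group means and error bars are SDs over 3 libraries; si-NEAT1_2 replicate 2 has the highest nuclear share (1.26%) and the lowest mitochondrial share (1.92%).

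Most nuclear members were higher in si-NEAT1_2, and none passed the test. Of the 83 tested, 0 reached a fold of 2 with an adjusted p under 0.05 (quasi-likelihood test of edgeR with Benjamini-Hochberg adjustment over 13109 genes), and the lowest adjusted p was 0.170. Over all genes the count was 0 as well (0.0% higher and 0.0% lower), with 1469 genes higher and 1696 lower at an unadjusted p under 0.05, and DESeq2 called 15 genes higher and 45 lower, none of them a member. At an unadjusted p under 0.05, 26 nuclear members (31.3%) were higher and 0 lower, beside 11.2% higher and 12.9% lower over all genes tested. In 22 members (26.5%) every si-NEAT1_2 library exceeded every NC library in CPM (counts scaled to the library total after TMM), beside 15.4% of all genes, and in 0 members every si-NEAT1_2 library was lower, beside 14.1%. The fold changes were small: the middle of the distribution ran from 0.19 to 0.42 on the log2 scale, against a median SE of 0.17.

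The count of 26 depended on single libraries. It was 8 without si-NEAT1_2 replicate 2, 2 without NC replicate 2, 10 without NC replicate 1 and 14 without NC replicate 3, beside 6.61%, 4.08%, 6.89% and 7.2% of all genes higher in the same fits. Without si-NEAT1_2 replicate 1 or replicate 3 it was 39, beside 15.3% and 8.6%. One member, NDUFC2-KCTD14, was lower at that p without NC replicate 3 or si-NEAT1_2 replicate 3, beside 10.8% and 7.99% of all genes. The count was 17 with limma-trend on log2(FPKM + 1) and on log2(FPKM + 0.1), beside 8.17% and 8.05%, and 13 on library totals alone (no TMM), beside 7.8%. It was 6 with the replicate number as a block, beside 4.69%, 36 with the code in the labels as a covariate, beside 12.9%, and 37 with no filter, beside 8.95%. In the fit with the code, si-NEAT1_2 replicate 1 adds nothing to the group difference, since no other library carries its code. The median log2 fold change was 0.11 without si-NEAT1_2 replicate 2 and lay between 0.25 and 0.42 without any other single library. In 77 of the 83 nuclear members si-NEAT1_2 replicate 2 had the highest CPM, and in 67 NC replicate 2 had the lowest.

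Length and GC content were taken from the longest annotated protein-coding transcript of each gene. Which transcript K1 cells use was not examined, so corrected values are uncertain where that transcript is long. In NC replicate 1, UQCRB had 4858 counts at 115 FPKM, and SDHA, with a longest transcript of 2390 bases, 7007 counts at 111 FPKM. SDHC had 2823 counts at 70.4 FPKM and ATP5F1A 14944 counts at 293 FPKM. All 3 genes had fewer counts per FPKM than SDHA. Their deposited FPKM thus go with shorter lengths than the correction took. By this measure the nuclear members had short transcripts, with a median of 1263 bases beside 3481 over all genes tested, and a median GC content of 47.9% beside 48.4%. Their log2 fold changes correlated across the 83 genes with length (Spearman's rho −0.38) and GC content (rho 0.48), as those of 12581 genes with known values did (rho −0.53 and 0.65). All genes of this correlation come from the same 6 libraries. With trends in GC content and length removed per library, the median of the nuclear members was 0.14, with 23 higher and 1 lower at an unadjusted p under 0.05, beside 7.92% and 7.68% of all genes. The member that was lower is NDUFA4L2. Of those 23 members, 8 were among the 26 of the uncorrected fit, among them COX4I1, COX5B, COX6A1, NDUFA11, NDUFB9 and NDUFS5. Each of the others had a longest transcript over the median of 1263 bases, with SDHC (13566), NDUFA9 (8363) and ATP5F1A (5818) the longest. The count of 23 thus depends on the lengths taken and is uncertain. With the block added to these trends, 7 were higher and 1 lower, beside 4.56% and 4.99%.

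**Figure D2:**
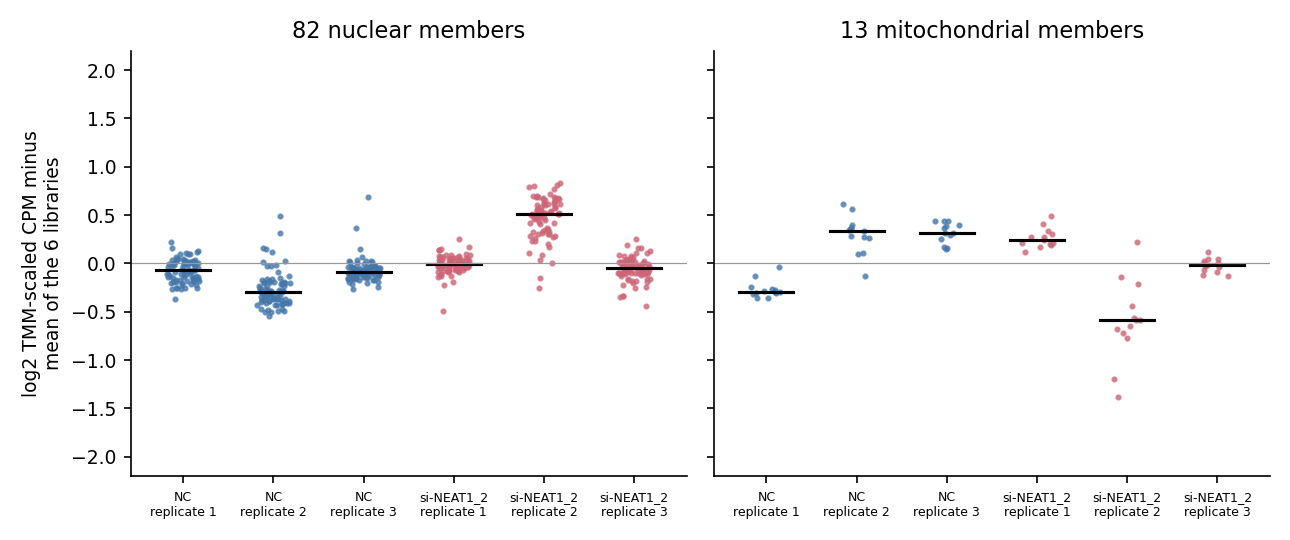
Each point is 1 member in 1 library, as log2 of its TMM-scaled CPM minus its mean over the 6 libraries, for nuclear (left) and mitochondrial members (right); black lines are medians. The plot leaves out NDUFC2-KCTD14, which had 0 counts in 1 library. The nuclear median is 0.51 in si-NEAT1_2 replicate 2 and −0.29 in NC replicate 2, and within −0.09 and −0.01 in the other libraries, whereas the mitochondrial median is −0.58 in si-NEAT1_2 replicate 2 and 0.33 in NC replicate 2.

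**Figure D3:**
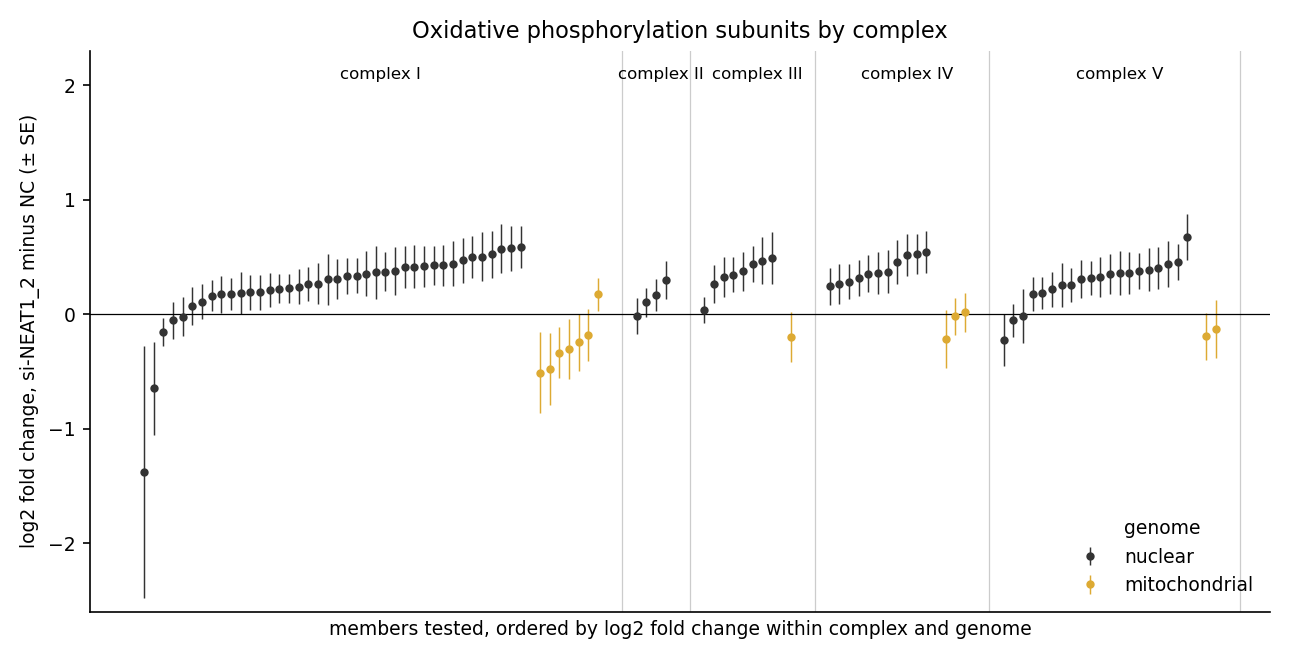
Log2 fold change (si-NEAT1_2 minus NC) with its SE for the 96 members tested, grouped by complex and ordered within each. Nuclear members lie mostly between 0 and 0.67, and mitochondrial members between −0.51 and 0.17.

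In complex I, which takes electrons from NADH, all 40 nuclear members were tested, with a median log2 fold change of 0.31. Of these, 35 were above 0, 14 (35.0%) were higher at an unadjusted p under 0.05, beside 11.2% of all genes, and 10 did not overlap between the groups, beside 15.4%. The corrected median was 0.10, with 10 members higher and 1 lower, beside 7.92% and 7.68%. NDUFA11, a membrane subunit (chr19:5891276-5904006, minus strand, GRCh38), had 167, 145 and 189 FPKM in NC and 199, 297 and 212 FPKM in si-NEAT1_2. Each si-NEAT1_2 library was above each NC library, and the library with the highest value was again si-NEAT1_2 replicate 2. The log2 fold change in CPM was 0.59 (SE 0.19, adjusted p 0.170 by edgeR), the largest of the complex among the members of at least 4 in average log2 CPM, and 0.26 when corrected. NDUFS8, an iron-sulfur subunit of the arm that carries electrons (chr11:68030617-68036644, plus strand), had 128, 110 and 146 FPKM in NC and 143, 224 and 181 FPKM in si-NEAT1_2. The groups overlapped, since si-NEAT1_2 replicate 1 was below NC replicate 3. Its log2 fold change was 0.57 (SE 0.19, adjusted p 0.170 by edgeR), and 0.09 when corrected. The members with the highest levels were the accessory subunits NDUFB9, NDUFB2 and NDUFS5, with mean FPKM of 180 ± 10.01, 187 ± 31.5 and 182 ± 12.1 in NC (SD, n = 3) and 241 ± 57.8, 231 ± 59.7 and 233 ± 44.6 in si-NEAT1_2. Their log2 fold changes were 0.50, 0.38 and 0.43, and 0.38, 0.29 and 0.21 when corrected. The lowest values belonged to genes with few counts: NDUFC2-KCTD14 at −1.38 (SE 1.10), whose level ran from 0 to 5.67 FPKM, and NDUFA4L2 at −0.65 (SE 0.41). NDUFS1, the largest core subunit, had −0.16.

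The 4 genes of complex II, succinate dehydrogenase, had a median log2 fold change of 0.14 (0.03 when corrected), and none had an unadjusted p under 0.05. SDHA, the flavoprotein that oxidises succinate (chr5:218241-256700, plus strand), had 111, 98.9 and 110 FPKM in NC and 109, 127 and 108 FPKM in si-NEAT1_2. The groups overlapped, with a log2 fold change of 0.17 (SE 0.14). SDHB, the iron-sulfur subunit, had 124, 114 and 120 FPKM in NC and 124, 169 and 123 FPKM in si-NEAT1_2, where replicate 2 alone stood above the rest (log2 fold change 0.30, SE 0.16). The membrane anchors SDHC and SDHD had log2 fold changes of 0.11 (SE 0.13) and −0.02 (SE 0.16). The corrected values were −0.07 for SDHA, 0.05 for SDHB and 0.008 for SDHD. SDHC came to 0.59 (SE 0.22) when corrected and was then among the 23 nuclear members higher at an unadjusted p under 0.05, with an adjusted p of 0.254 by edgeR. The correction took its length as 13566 bases, that of its longest annotated transcript. The deposited FPKM go with a shorter length, so this value is unreliable. Whether complex II differs from the other complexes was not tested.

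Complex III hands electrons to cytochrome c. All 8 tested nuclear members had log2 fold changes above 0, with a median of 0.36 (0.15 when corrected). UQCRC1, a core subunit, had 135, 112 and 136 FPKM in NC and 149, 191 and 155 FPKM in si-NEAT1_2, with no overlap between the groups. Its log2 fold change was 0.44 (SE 0.16, adjusted p 0.172 by edgeR), and 0.08 when corrected. UQCR11 and UQCRQ, small subunits that accompany the core, had the largest values of the complex, 0.49 (SE 0.23) and 0.47 (SE 0.20), and overlapped between the groups. Corrected, they were at 0.13 and 0.19, and UQCRB, another small subunit, had the largest corrected value of all members, 0.82 (SE 0.23, adjusted p 0.187 by edgeR), against 0.35 uncorrected. The correction took the length of UQCRB as 5575 bases, that of its longest annotated transcript. The deposited FPKM go with a shorter length, so this value and its rank are unreliable. UQCRH, the hinge protein that helps cytochrome c bind, had the highest level, at 239 ± 29.5 FPKM in NC and 284 ± 52.0 in si-NEAT1_2 (SD, n = 3), with a log2 fold change of 0.32 (0.14 when corrected). UQCRC2, the other core subunit, was at 0.04.

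Complex IV, cytochrome c oxidase, had 11 tested nuclear members, all above 0, with a median of 0.36 (0.20 when corrected) and a range from 0.24 to 0.54. COX4I1, a regulatory subunit (chr16:85798633-85807044, plus strand), had 402, 333 and 420 FPKM in NC and 464, 661 and 471 FPKM in si-NEAT1_2. COX6A1 (chr12:120438090-120440742, plus strand), a small subunit, had 457, 396 and 481 FPKM in NC and 498, 741 and 585 FPKM in si-NEAT1_2. In both genes the groups did not overlap, and in both replicate 2 of si-NEAT1_2 was far above its fellow replicates. The log2 fold changes were 0.54 (SE 0.18) and 0.52 (SE 0.18), each with an adjusted p of 0.170 by edgeR, and 0.27 and 0.20 when corrected. COX8A, another small subunit, had 252 ± 28.5 FPKM in NC and 306 ± 46.4 in si-NEAT1_2 (SD, n = 3), with a log2 fold change of 0.35 that was −0.03 when corrected.

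Complex V had 20 tested nuclear members, 17 of them above 0, with a median of 0.32 (0.13 when corrected). ATP5F1D, the delta subunit of the central stalk (chr19:1241746-1244826, plus strand), had 93.4, 84.2 and 90.4 FPKM in NC and 111, 175 and 115 FPKM in si-NEAT1_2. The NC values were close together and all 3 si-NEAT1_2 values lay above them. Its log2 fold change of 0.67 (SE 0.20, adjusted p 0.170 by edgeR) was the largest of all members, but came to 0.14 (SE 0.09) when corrected, which ranked 42 among the 96 members tested. It was the only member with an adjusted p under 0.05 in DESeq2 (0.048), at less than a 2-fold difference, beside 441 of all 13109 genes at any fold. ATP5MF, a subunit of the membrane part, had a log2 fold change of 0.45 (SE 0.16) without overlap, and 0.11 when corrected. ATP5MC2, one of the c-ring genes, had 283, 261 and 296 FPKM in NC and 310, 406 and 329 FPKM in si-NEAT1_2, again without overlap (log2 fold change 0.38, SE 0.16; 0.04 when corrected). Of the alpha and beta subunits that form the catalytic head, ATP5F1B had 541 ± 66.6 FPKM in NC and 602 ± 52.0 in si-NEAT1_2, and ATP5F1A 259 ± 29.7 and 273 ± 30.4 (SD, n = 3), with log2 fold changes of 0.22 and 0.18. Corrected, ATP5F1B was at −0.01 and ATP5F1A at 0.42 (SE 0.18), the latter among the 23 members higher at an unadjusted p under 0.05. The length taken for ATP5F1A was 5818 bases, that of its longest annotated transcript. The deposited FPKM go with a shorter length, so its corrected value is unreliable. ATP5S and ATP5PB, a stator subunit, were at −0.23 (SE 0.23) and −0.05, and ATP5S was at 0.27 (SE 0.19) when corrected.

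Among the mitochondrial members, none had an unadjusted p under 0.05, beside 24.1% of all genes in either direction, and the groups overlapped in all 13. The lowest adjusted p was 0.348 (edgeR). Each of the 13 had at least 1187 counts in every library, so the spread between libraries, with SEs from 0.15 to 0.35 on the log2 scale, and not the depth, limited these values. The lowest CPM belonged to si-NEAT1_2 replicate 2 in 10 of the 13, and the median log2 fold change was −0.009 without it. At an unadjusted p under 0.05, 3 members were lower without si-NEAT1_2 replicate 1 (18.1% of all genes), 2 when the code in the labels was a covariate (15.6%) and 1 without NC replicate 1 (13.8%). With GC content and length trends removed, the median was −0.29, with 2 of the 13 above 0, and with the block added it was −0.33. In the corrected fit without the block, 1 of the 13 was higher at an unadjusted p under 0.05, beside 7.92% of all genes. It was MT-ND3, at 0.34 (SE 0.10, adjusted p 0.200 by edgeR). MT-CO1 had 5258, 8379 and 7867 FPKM in NC and 8108, 3635 and 6135 FPKM in si-NEAT1_2. High and low libraries occurred in both groups, and the log2 fold change was −0.22 (SE 0.25). MT-CO2 and MT-CO3, the other two mitochondrial subunits of complex IV, were close to 0, at −0.02 and 0.02, the sign of each turning with the setting.

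The lowest log2 fold changes were those of MT-ND4L and MT-ND5, membrane subunits of complex I. MT-ND4L (chrM:10470-10766) had 645, 1030 and 904 FPKM in NC and 933, 230 and 597 FPKM in si-NEAT1_2 (log2 fold change −0.51, SE 0.35). MT-ND5 (chrM:12337-14148) had 779, 1285 and 1160 FPKM in NC and 1058, 340 and 855 FPKM in si-NEAT1_2 (−0.48, SE 0.32). In both, the value of si-NEAT1_2 replicate 2 was less than the lowest NC value and the other two si-NEAT1_2 values lay within or just under the NC range. MT-ND1, MT-ND2 and MT-ND4 had −0.18, −0.25 and −0.31, and MT-ND6, the only mitochondrial member on the minus strand, had −0.34 (SE 0.23). MT-ND3 stood on the other side, at 0.17 (SE 0.15), with 825, 942 and 1128 FPKM in NC and 1101, 1072 and 944 FPKM in si-NEAT1_2. MT-CYB of complex III had −0.20, and MT-ATP6 and MT-ATP8 of complex V had −0.19 and −0.13. The sources used here do not state whether the counting used strand, so reads from MT-ND6 and from the opposite strand may be mixed.

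The mix of mitochondrial mRNAs also differed in si-NEAT1_2 replicate 2. MT-ND5 made up 3.21% of all mitochondrial counts there and between 5.27% and 6.19% in the other 5 libraries. MT-ND4L made up 0.357% there and between 0.609% and 0.814% elsewhere. In contrast, MT-ND3 made up 1.94% there and between 0.867% and 1.15% elsewhere, and MT-CO3 made up 20.9% there and between 14.1% and 15.9% elsewhere. In all 4 genes the value of this library lay outside the range of the other 5. These genes are examples, since the same held for most mitochondrial members, among them MT-CO1 (29.2% there), MT-CO2 (14.2%) and MT-ND4 (9.07%). It did not hold for MT-ND1 and MT-ND6.

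**Figure D4:**
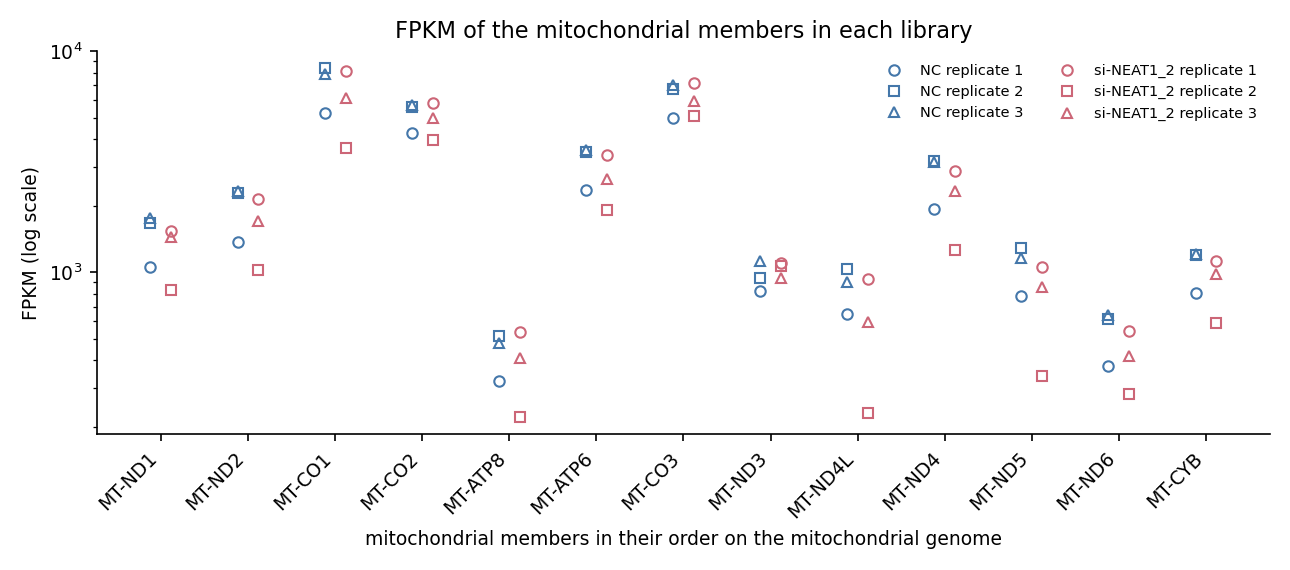
FPKM (log scale) of the 13 mitochondrial members in each library, in their order on the mitochondrial genome; symbols mark replicates and colours mark groups. MT-CO1, MT-CO2 and MT-CO3 are highest, and si-NEAT1_2 replicate 2 (red squares) is lowest for MT-CO1 (3635), MT-ND4L (230) and MT-ND5 (340).

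The library code in the labels (L2, L3 or L4) was shared by NC replicates 2 and 3 and si-NEAT1_2 replicate 2 (L2) and by NC replicate 1 and si-NEAT1_2 replicate 3 (L3), while si-NEAT1_2 replicate 1 alone carried L4. What the code stands for is not given. Within L2, the median log2 difference between the si-NEAT1_2 library and the NC mean was 0.71 for nuclear members and −0.99 for mitochondrial members. Within L3, with 1 library per group, it was −0.003 for nuclear members and 0.25 for mitochondrial members. Opposite signs with the nuclear members higher were thus seen within L2 and not within L3. L4 holds a single library, so no value can be given, and with the code as a covariate that library adds nothing to the group difference.

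Other nuclear genes of mitochondria were set beside the subunits. The 78 mitochondrial ribosomal proteins, which make the mitochondrial members' proteins and are no part of the respiratory chain, had a median log2 fold change of 0.33, with 27 higher (34.6%) and 0 lower at an unadjusted p under 0.05, beside 11.2% and 12.9% of all genes. Their corrected median was 0.09, with 11 higher and 0 lower, beside 7.92% and 7.68%. Of 48 entries for assembly factors, which build the complexes, 9 were higher (18.8%) and 1 lower, with a median of 0.17 (0.09 when corrected). The gene SCO2 is counted more than once among these entries, under separate Ensembl identifiers. COA1 (0.63), COA4 (0.51) and UQCC2 (0.60) were among the higher ones, and LYRM7 (−0.78, SE 0.25), needed to insert the iron-sulfur protein of complex III, was the lower one. The level of LYRM7 was low, with 2.25, 2.42 and 3.49 FPKM in NC and 1.39, 2.89 and 3.22 FPKM in si-NEAT1_2. Its groups overlapped. Of 16 electron carriers and related genes, 5 were higher (31.2%) and 0 lower, with a median of 0.19 (0.08 when corrected). CYC1, the cytochrome c1 subunit of complex III that the name rule leaves out, had 0.45. None of these genes passed the test.

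Of 31 genes for expression of the mitochondrial genome, 3 were higher and 4 lower at an unadjusted p under 0.05 (9.68% and 12.9%), shares near those of all genes (11.2% and 12.9%), with a median of −0.05 (0.05 when corrected). LRPPRC, which stabilises mitochondrial mRNAs, had −0.39 and PNPT1, an RNA-degrading enzyme, −0.34, while TUFM, the mitochondrial elongation factor, had 0.48. Of 13 tested nuclear regulators, 0 were higher and 3 lower, beside 11.2% and 12.9% of all genes, with a median of −0.24. Corrected, the median was −0.02, and 0 were higher or lower at that p, beside 7.92% and 7.68%. The 3 were GABPA (−0.68) and CREB1 (−0.57), whose groups overlapped, and HIF1A (−0.55), whose groups did not. NRF1 had 0.22. As for the promoters described above, 0 of the 20 members with a promoter that were higher at an unadjusted p under 0.05 held the NRF1 letters and 7 held the ETS letters (35%). Among the other 45 tested members with a promoter, 4 held the NRF1 letters (8.89%) and 12 the ETS letters (26.7%).

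The cytosolic ribosomal proteins, a class of short and abundant nuclear mRNAs outside mitochondria, were added after the data were seen. Of 81 tested, 51 were higher and 0 lower at an unadjusted p under 0.05, with a median of 0.42, beside 11.2% and 12.9% of all genes. The corrected median was 0.21, with 44 higher and 0 lower, beside 7.92% and 7.68% of all genes. Their medians by library followed those of the nuclear members, at 0.62 in si-NEAT1_2 replicate 2 and −0.39 in NC replicate 2. A difference between the subunits and the ribosomal proteins was not tested.

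The group table was set beside the libraries for the same members. It holds 1 value per group, with no replicates, and 17678761 (NC) and 19579897 (SI) counts, fewer than any single library. The median ratio of SI to NC in FPKM was 0.992 over the 83 nuclear members, 37 of them higher and 46 lower in SI, and 1.18 over the 13 mitochondrial members, 11 of them higher and 2 lower. Over 12404 genes the median ratio was 0.846, and SI was above NC in 34.6%. The nuclear median thus lay above that of all genes in the group table, as it did in the libraries. The mitochondrial members, however, were mostly higher in the SI column and mostly lower in the si-NEAT1_2 libraries. The nuclear members with the highest ratios were ATP5MD (1.57), NDUFA3 (1.36) and NDUFA11 (1.34), all accessory subunits, and those with the lowest were NDUFC2-KCTD14 (0.404), UQCRC2 (0.540) and ATP5S (0.576).

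The levels of the group table also lay outside those of the libraries. The NC value was above all 6 libraries in 47 of 83 nuclear members, beside 27.0% of all genes, the SI value was so in 41, beside 22.7%, and the NC value was below all 6 libraries in 6 of 13 mitochondrial members, beside 39.8%. The median log2 ratio of the NC column to the mean of the NC libraries was 0.58 for nuclear and −0.91 for mitochondrial members, beside −0.28 over all genes. NDUFA11, for example, was at 516 FPKM in the NC column and between 145 and 297 FPKM in the libraries. MT-ND2 was at 523 FPKM in the NC column and between 1026 and 2326 FPKM in the libraries. A mean of the 3 NC libraries could not lie outside their range. Markers differed as well: KRT19 was at 29.8 FPKM in the NC column and at most 0.70 in the libraries, and LUM was at 0.43 and at least 16.2.

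**Figure D5:**
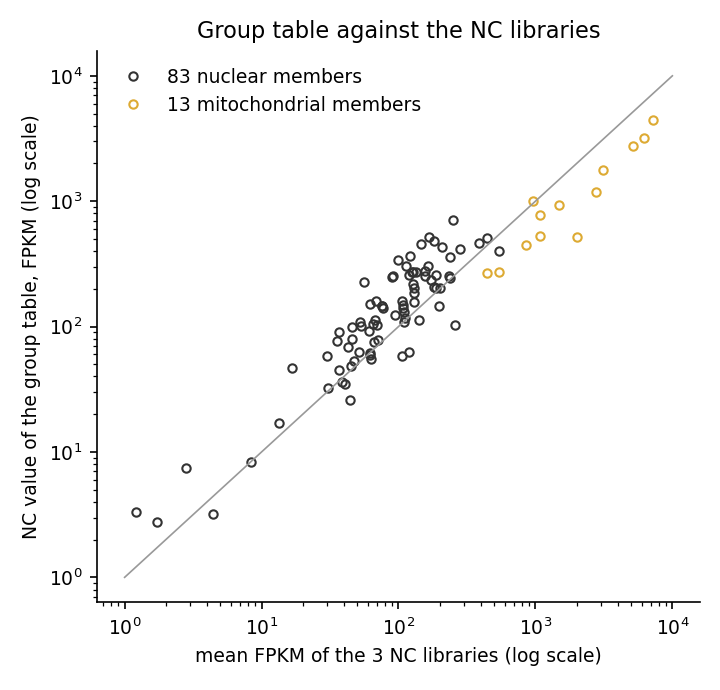
NC value of the group table against the mean of the 3 NC libraries, both in FPKM on log scales, for 83 nuclear and 13 mitochondrial members; the line marks equal values. Nuclear members lie mostly above the line (median log2 ratio 0.58) and mitochondrial members mostly below it (median log2 ratio −0.91).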

How the data were processed

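The deposited expected counts and FPKM values of 6 K1 libraries (3 NC, 3 si-NEAT1_2) and of a group table were used; groups follow the labels. The authors made the expected counts per gene, which are not normalized, and the FPKM values, which scale reads by library size and by the length of the gene. The study's methods name TopHat2 and RSEM, whereas the submitters' processing notes list fastp 0.18.0, Bowtie2 2.2.8, HISAT2, StringTie 1.3.1 and GRCh38, so which tools made the files is not settled. Strand-specific counting is not given in the sources used here.

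Expected counts were rounded and filtered with filterByExpr, and edgeR 4.0.16 (R 4.3.3) gave TMM factors and quasi-likelihood tests on the whole table of 20522 rows, 838 unannotated loci included, leaving 13109 genes. Calls needed an adjusted p under 0.05 and a fold of at least 2. The fit was also run on simulated counts, which held no trends with GC content or length, so that run cannot speak to such trends. FPKM values were used for levels. Fold changes come from counts, not from FPKM. Positions came from GENCODE release 29, as did lengths and GC content, which were those of each gene's longest protein-coding transcript. GC content and length trends were splines with 5 degrees of freedom per library. Alternatives were DESeq2 1.42.0, limma-trend (limma 3.58.1) on log2(FPKM + 1) and log2(FPKM + 0.1), other scaling and filters, a replicate block, the library code, GC content and length trends, and leaving out each library. Depth was 22798631 to 27066025 counts per library.

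The members and lists were chosen with earlier results of these data known. Genes named were all mitochondrial members, the 4 SDH genes, per complex the 3 highest nuclear members and the 2 with the largest difference at an average log2 CPM of at least 4, isoform pairs, and the 3 highest and 3 lowest ratios of the group table; any other gene was named after its values were seen. The members hold 104 of 19684 genes with an Ensembl identifier.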

Additional observations from a re-analysis of the deposited data

How the results depend on the processing

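No member was called in any of the 16 alternatives. At an adjusted p under 0.05 but under 2-fold stood 1 member with DESeq2, beside 441 of all 13109 genes at any fold. Without si-NEAT1_2 replicate 1 it was 4 members (ATP5F1D, NDUFS8, COX6A1 and NDUFA11), beside 755 of 13109 genes at any fold. That fit called 37 genes higher and 211 lower, none of them a member. The 26 nuclear members higher at an unadjusted p under 0.05 became 36 with the library code, 37 with no filter, 17 with limma-trend on log2(FPKM + 1) and also 17 with log2(FPKM + 0.1), 13 without TMM, 6 with the replicate block, 7 with the replicate block and GC content and length trends, and between 2 and 39 when 1 library was left out. Nuclear members lower at that p numbered 1 with GC content and length trends, 1 with these and the replicate block, and 0 to 1 when 1 library was left out. For mitochondrial members, 1 was higher with GC content and length trends (7.92% of all genes) and 1 with these and the block (4.56%). Lower were 2 with the library code (15.6%), and 0 to 3 when 1 library was left out. The study's methods speak of pairs of NC and si-NEAT1_2 cells without tying them to replicate numbers. Same-numbered libraries did not deviate together (correlations −0.28, −0.36 and −0.008), so the block was kept as an alternative. The nuclear median with the block was 0.30 and the mitochondrial one −0.22. Medians of both classes kept their sign in all 16 alternatives, the nuclear one from 0.11 to 0.42 and the mitochondrial one from −0.41 to −0.009. In the group table the nuclear median log2 ratio (−0.011) was −0.0096 with at least 1 FPKM in both columns and −0.012 in CPM, and the mitochondrial one (0.24) was 0.23 in CPM.

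Of the 34 named and tested members, 25 kept their sign in all 16 alternatives. Signs turned with GC content and length trends, without and with the replicate block, for MT-CO3 (−0.13 and −0.14), MT-ATP8 (0.22 and 0.13), SDHA (−0.068 and −0.071), COX8A (−0.029 and −0.030) and ATP5F1B (−0.013 and −0.011), and for SDHD without the block (0.0078). MT-CO3 also turned with the library code (−0.034), limma-trend (−0.040 with either pseudocount) and no TMM (−0.042). Leaving out 1 library gave ranges that crossed 0 for MT-ND1 (−0.40 to 0.0063), MT-CO1 (−0.48 to 0.0016), MT-CO2 (−0.15 to 0.067), MT-CO3 (−0.13 to 0.10), MT-ATP8 (−0.41 to 0.11) and SDHD (−0.17 to 0.13). The cause of these changes was not tested. With 3 libraries per group, the spread between libraries and not the depth limits these values.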
